A study of Saccharomyces cerevisiae with 12 samples.

Results

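Gene expression in Saccharomyces cerevisiae cultures exposed to tomatine was set against that in cultures exposed to tomatidine, its aglycone, on the 3 arrays of each compound, which make up 6 of the 12 arrays of the series. The arrays were taken by their titles, and the genes were all 5656 that are measured by a probe set naming exactly 1 gene. Tomatine was given at 13.9 ppm and tomatidine at 0.625 ppm, both dissolved in dimethylformamide. The 3 control arrays come from cultures that received dimethylformamide alone, and 3 arrays of cultures given the fungicide fenpropimorph at 0.313 ppm entered only the estimate of the spread. All groups were the laboratory strain S288C. Cultures started at an OD600 of 0.1 and grew at 30 °C, for 1 h before compound or solvent was added and for 5 h with it. Each of 3 days gave 1 culture of every group, and arrays are named here by group and day. By mass the tomatine dose was 22.2 times the tomatidine dose, so in every difference below the compound and its dose cannot be told apart. A further label field gives tomatidine as the treatment of all 12 samples, against the titles and the series text, and was not used.

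Tomatine is a defence compound of tomato, a steroidal alkaloid that carries a branched chain of sugars, and tomatidine is the steroidal alkaloid left when those sugars are removed. Saponins such as tomatine bind sterols and disturb membranes, and in Candida and Leishmania species tomatidine is known as an inhibitor of the sterol methyltransferase that yeast calls ERG6. In yeast the main sterol is ergosterol. When it runs short the activators UPC2 and ECM22 raise the genes of ergosterol synthesis, and UPC2 also raises genes of anaerobic growth, such as the sterol importers and the DAN and TIR mannoproteins of the cell wall.

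The median signal of the 6 arrays was 77.2 to 78.4, and log2 signals correlated at 0.995 to 0.997 within a group and at 0.992 to 0.994 between tomatine and tomatidine arrays. A principal component with 44.7% of the variance of the 6 arrays separated the groups, and the next, with 19.1%, set tomatine 2 against tomatine 3. Tomatine 2 stood more than 1 log2 unit below both other arrays of its group on 20 of the 4115 probe sets with a mean signal of at least 100, against 0 to 2 probe sets for each of the other 5 arrays. The log2 ratio of the 3′ to the 5′ probe set of the control gene SPT15 was 2.24 ± 0.0306 with tomatine and 1.82 ± 0.285 with tomatidine (SD, n = 3 arrays each), and that of ACT1 was 0.334 ± 0.0661 with tomatine and 0.465 ± 0.128 with tomatidine. The part of these gaps in the results below was not tested. S288C is a haploid strain of mating type alpha, and the marker genes of both mating types were read as a check. The 4 genes of alpha cells had signals of 819 to 6122 on the 6 arrays. Of the 7 genes of a cells, MFA1 and MFA2 had 53.4 to 110.4 and the other 5 had 5.99 to 15.9. Signals of the alpha pheromone gene MF(ALPHA)1 were 5879.7, 5887 and 6122 with tomatine and 5272, 5082 and 5429 with tomatidine. The a-cell receptor gene STE2 stood at 6.23, 6.38 and 7.39 with tomatine and at 6.61, 7.07 and 7.33 with tomatidine.

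Between the compounds the largest differences ran in 1 direction. Of 9275 tested probe sets 472 differed (5.09%), 204 higher with tomatine (2.20%) and 268 lower (2.89%), by limma with Benjamini-Hochberg adjustment and an adjusted p under 0.05. A difference of at least 2-fold was called for 47 probe sets (0.507%), 6 of them higher (0.0647%) and 41 lower (0.442%) with tomatine. Counted by gene, 346 of 5656 differed (6.12%), 149 higher (2.63%) and 197 lower (3.48%), and the median log2 difference over all genes was 0.02. The count of calls in each gene list below is to be read beside these shares of all genes. By gene, 40 were called at 2-fold or more (0.707%), 36 lower (0.636%) and 4 higher (0.0707%). Of the 2443 probe sets that name no gene 50 were called (2.05%), and of the 328 that name several 42 (12.8%). For 9091 probe sets (98.0%) the 95% interval of the difference lay within 2-fold in either direction. The count of 472 was 261 without tomatidine 1, 303 without tomatine 2 and 310 without tomatine 1, and it was 261 with only these 6 arrays in the fit. The 204 higher calls numbered 80 without tomatidine 1 and 102 to 134 without each of the other 5 arrays. Higher calls outnumbered lower ones after each array was centred on its median (268 higher, 257 lower), with 16 added before the log (353 higher, 311 lower), among the probe sets above the median signal (377 higher of 665) and with 1 probe set per gene (284 higher, 267 lower). Values after ± below are standard errors of the fit with n = 3 arrays in each group unless another error is named, differences are tomatine minus tomatidine on the log2 scale, and each p-value rests on the spread among cultures grown on 3 days.

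**Figure D1:**
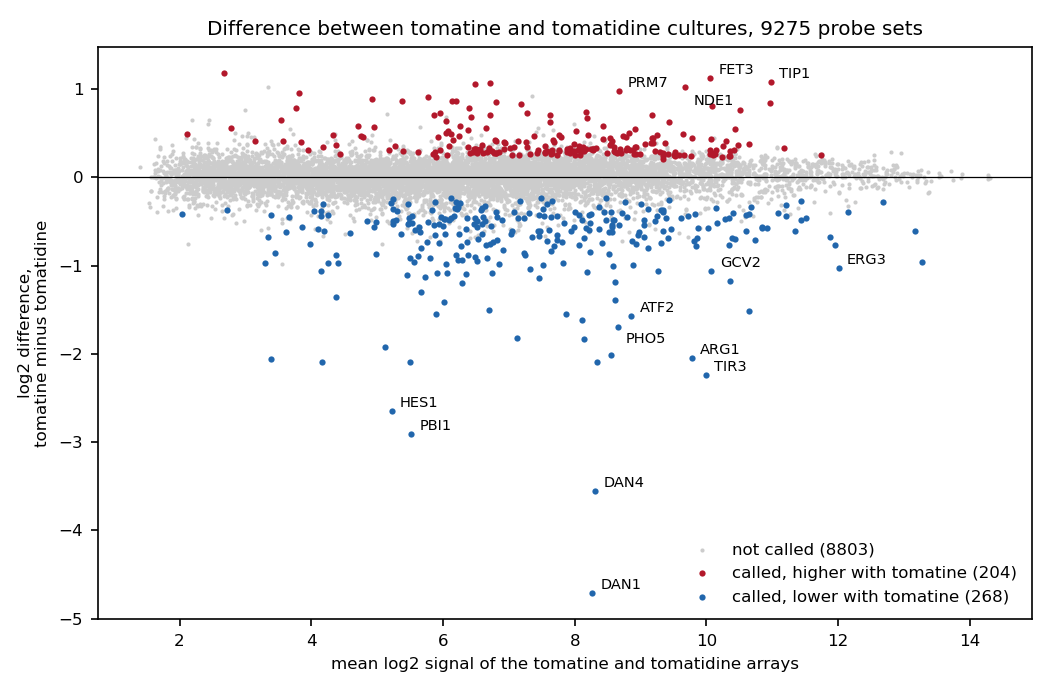
Each point is 1 of 9275 probe sets, with the mean log2 signal of the 6 arrays on the x axis and the log2 difference, tomatine minus tomatidine, on the y axis. Red points were called higher with tomatine (204) and blue points lower (268). The lower calls reach -4.71 (DAN1), while among named genes the higher ones reach 1.12 (FET3).

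All 14 measured genes of late ergosterol synthesis, the steps that turn squalene into ergosterol, were lower with tomatine than with tomatidine, with a list median of -0.75 beside 0.02 for all genes. For all 14 every tomatine array lay below every tomatidine array. That held for 11.4% of all genes but for all 197 genes called lower, so it adds nothing to the calls. The mean log2 signal of the list was 9.53, 9.41 and 9.52 on the tomatine arrays, 10.33, 10.31 and 10.23 on the tomatidine arrays and 9.55, 9.53 and 9.45 on the control arrays. The tomatine and control ranges overlapped, and the tomatidine arrays stood above both.

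ERG28, the scaffold of the sterol demethylation enzymes, had signals of 255, 230.4 and 242 with tomatine, 629, 656 and 619 with tomatidine and 297, 274 and 251 in control. It had the largest difference of the pathway, 2.62-fold lower with tomatine (-1.39 ± 0.0960, adjusted p = 8.76e-06). ERG3, the sterol desaturase near the end of the pathway, had 2894, 2812 and 2935 with tomatine, 6072, 6059 and 5558 with tomatidine and 2684, 2721 and 2550.5 in control. It was 2.05-fold lower with tomatine (-1.03 ± 0.0626, adjusted p = 3.79e-06), with groups far apart on all 3 days. ERG5, the other desaturase, had 268, 263 and 285 with tomatine against 526, 537 and 569 with tomatidine (95% interval of the log2 difference -1.16 to -0.84, adjusted p = 1.18e-05). The sterol reductase gene ERG24 had 383, 244 and 395 with tomatine against 711, 676 and 608 with tomatidine (-0.995 ± 0.148, adjusted p = 0.00212). Its lowest value came from tomatine 2, and all 3 tomatine values stayed below those with tomatidine. ERG26, the decarboxylase of sterol demethylation, differed by -0.86 ± 0.0841 (adjusted p = 9.9e-05), and its partners ERG25, the methyl oxidase, and ERG27, the ketoreductase, differed by -0.67 ± 0.0646 and -0.58 ± 0.0813 (adjusted p = 9.4e-05 and 0.00148).

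At the entry to the pathway the differences were -0.74 for ERG1, squalene epoxidase, -0.45 for ERG7, lanosterol synthase, and -0.47 for ERG11, lanosterol demethylase. At its exit ERG2, the sterol isomerase, differed by -0.77 and ERG4, the last reductase, by -0.70. ERG6, the sterol methyltransferase, had 1599, 1532 and 1633 with tomatine, 2509, 2353 and 2252 with tomatidine and 1482, 1513 and 1453 in control. The tomatine and tomatidine values did not overlap (-0.58 ± 0.137, adjusted p = 0.0331), but the call ended when any 1 of the 6 arrays was left out, with adjusted p of 0.0599 to 0.113. ERG29, which acts with the methyl oxidase, had 93.4, 53.1 and 110.3 with tomatine against 178, 158 and 149.7 with tomatidine (-0.98 ± 0.208, adjusted p = 0.0189). Its adjusted p was 0.0788 without tomatidine 1 and 0.056 without tomatidine 2, within 0.00727 to 0.0942 over all 17 alternatives. The smallest difference among the 14 was that of ERG7.

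**Figure D2:**
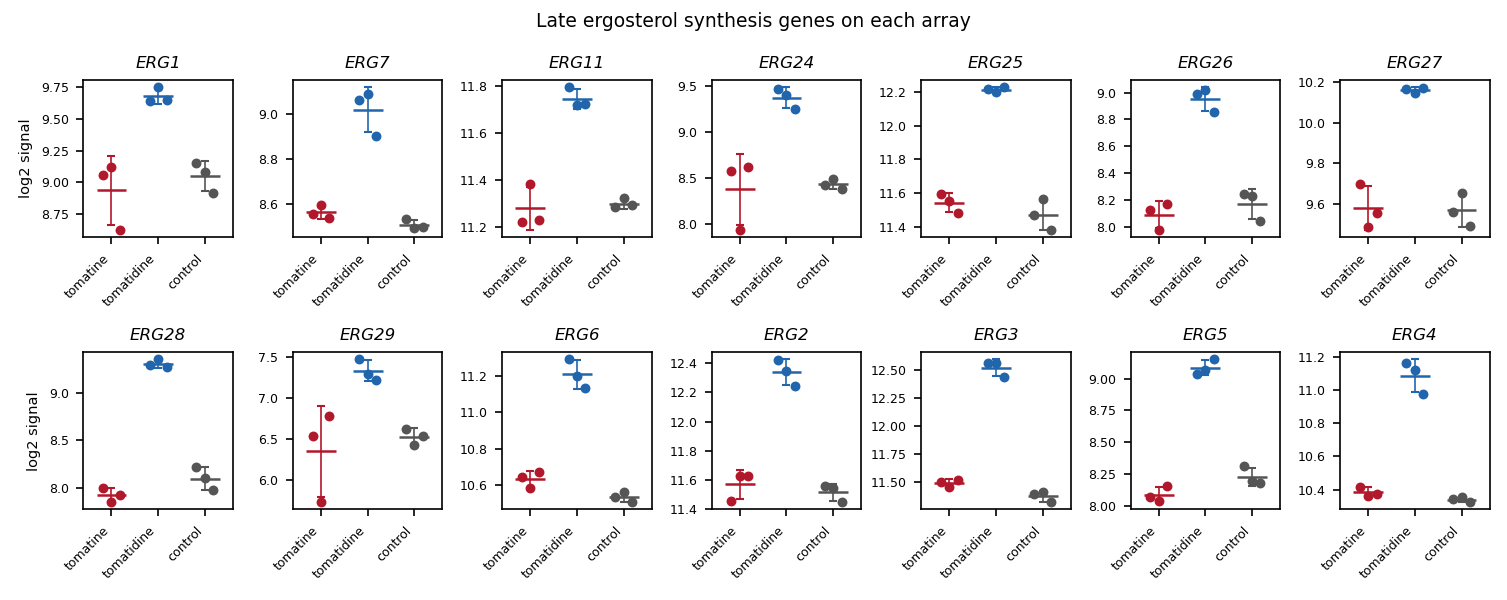
Each panel shows the log2 signal of 1 late ergosterol gene on the 3 tomatine (red), 3 tomatidine (blue) and 3 control (grey) arrays, with the group mean and SD as bars and a y axis of its own that does not start at 0. In all 14 panels the tomatidine points lie above the tomatine points, and for ERG24 and ERG29 tomatine 2 is the lowest point.

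Of the 10 genes of the mevalonate and farnesyl steps, which make squalene, 1 was called lower with tomatine (10.0%, against 3.48% of all genes). None was called higher, and the list median was -0.13. That gene was ERG9, squalene synthase, with 875, 812 and 883 with tomatine against 1231, 1420.1 and 1178 with tomatidine (-0.57 ± 0.0918, adjusted p = 0.00369). ERG8, phosphomevalonate kinase, had a larger difference that did not pass the test (809.6, 447 and 816 with tomatine, 1124, 1072 and 1008 with tomatidine), where tomatine 2 was the low array (-0.68 ± 0.187, adjusted p = 0.0604, 0.0383 with the day as a block, and 0.0309 to 0.174 over all 17 alternatives). The count of the list was 2 with the block, without tomatine 1 or without tomatine 3. The reductase genes HMG1 and HMG2 had differences of -0.07 (95% interval -0.23 to 0.09) and -0.03 (-0.17 to 0.12), and IDI1, the isomerase, had 0.26 (0.09 to 0.44). ERG10, ERG12, ERG13, ERG20 and MVD1, which hold most of the other steps, lay between -0.20 and -0.10. ERG12, mevalonate kinase, is on 4 probe sets, of which 1 with a lower signal was called lower (-0.46, adjusted p = 0.0345).

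Among the regulators of sterol and oxygen response, 1 of 14 was called lower (7.14%, against 3.48% of all genes) and none higher. UPC2 had 41.0, 44.7 and 63.6 with tomatine, 65.3, 71.3 and 68.8 with tomatidine and 42.5, 42.2 and 34.6 in control. All 3 tomatine values lay below the tomatidine values, and the difference of -0.49 ± 0.142 did not pass the test (adjusted p = 0.0759, 95% interval -0.80 to -0.17). It passed without tomatine 3, whose value was the highest of its group (adjusted p = 0.00538), and also with array weights, with 1 probe set per gene and among the probe sets above the median signal. Over all 17 alternatives its adjusted p was 0.00538 to 0.217. ECM22, its relative, had 138, 131 and 130.5 with tomatine and 124, 107 and 137 with tomatidine (95% interval -0.09 to 0.34), and the groups overlapped. The call of the list was HAP1, the haem-responsive activator (-0.54 ± 0.0820, adjusted p = 0.00251). The 2 other HAP1 probe sets had 0.12 and 0.28 and were not called. Both are of a type that can also hybridise to related sequences, so they may not measure HAP1 alone. Without tomatine 3 the count of this list was 2.

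The 2 largest differences of the whole comparison belonged to DAN1 and DAN4, which encode mannoproteins that coat anaerobic cells. DAN1 (YJR150C) had signals of 64.7, 55.2 and 60.4 with tomatine, 1811, 1797 and 1189 with tomatidine and 31.6, 98.0 and 32.2 in control. It was 26.2-fold lower with tomatine (-4.71 ± 0.344, adjusted p = 1.18e-05), and its tomatine values lay within the range of the control values. Its neighbour DAN4 (YJR151C) had 90.2, 94.4 and 92.8 with tomatine, 1119.5, 1502 and 761 with tomatidine and 102, 105 and 103 in control. That is 11.7-fold lower with tomatine (-3.55 ± 0.196, adjusted p = 2.11e-06). TIR3 (YIL011W) had 487, 518 and 407 with tomatine against 2234, 2361 and 2062 with tomatidine, 4.73-fold lower (-2.24 ± 0.112, adjusted p = 9.63e-07), and TIR4 (YOR009W) had 157, 156 and 159 with tomatine against 823, 799 and 455 with tomatidine, 4.26-fold lower (-2.09 ± 0.179, adjusted p = 3.8e-05). In this list 6 of 10 measured genes were called lower with every single array left out, and the list median was -0.78. The list also holds the wall mannoproteins CWP1, CWP2 and TIP1, so these figures do not describe anaerobic mannoproteins alone.

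The same list held 2 genes that were higher with tomatine. TIP1, a mannoprotein first described in cold shock, had 2901, 2801 and 3103 with tomatine, 1409, 1260.1 and 1510.1 with tomatidine and 2304, 2725 and 2254 in control. It was 2.11-fold higher with tomatine (1.08 ± 0.111, adjusted p = 0.000172). CWP1, a major mannoprotein of aerobic walls, had 1573, 1597 and 1696 with tomatine against 1178, 1319.8 and 1274 with tomatidine (0.37 ± 0.0922, adjusted p = 0.0409), and this call ended when any 1 of the 6 arrays was left out (adjusted p of 0.0698 to 0.147).

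Of the 19 genes of sterol uptake, esterification and acetylation, 7 were called lower with tomatine and 1 higher. The higher one was PRY2, a secreted sterol-binding protein named here after its values were seen, and it was not called without tomatine 1, tomatine 2, tomatidine 1 or tomatidine 2. ATF2, an acetyltransferase that acts on alcohols and sterols, had 269, 287 and 253 with tomatine, 773, 855 and 774 with tomatidine and 199.8, 229.5 and 212 in control. It was 2.97-fold lower with tomatine (-1.57 ± 0.0752, adjusted p = 9.63e-07). Both ABC transporters that import sterols without oxygen were lower, PDR11 with 36.7, 37.1 and 25.3 with tomatine against 85.1, 84.4 and 70.9 with tomatidine (-1.30 ± 0.144, adjusted p = 0.000275) and AUS1 with 110.3, 104 and 122 with tomatine against 234, 241 and 154 with tomatidine (-0.88 ± 0.141, adjusted p = 0.00373). Of the 6 AUS1 probe sets 5 were called lower. YEH1, a steryl ester hydrolase, differed by -0.73 ± 0.134 (adjusted p = 0.00814). Of the 7 oxysterol-binding protein homologues only HES1 was called (14.3%, against 3.48% of all genes called lower). HES1 had 13.7, 15.9 and 15.2 with tomatine, 95.6, 112 and 75.3 with tomatidine and 7.49, 14.4 and 10.1 in control (-2.64 ± 0.215, adjusted p = 2.62e-05). Its tomatine and control values lay at the level of the 5 dimmest a-cell markers (5.99 to 15.9), so no fold is given, and no tomatine value came near a tomatidine value.

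Of 12 hypoxic isoforms and haem genes, 3 were called lower (25.0%, against 3.48% of all genes) and none higher. ANB1, the hypoxic form of translation factor eIF5A, had 954, 798 and 871 with tomatine against 2174, 2082 and 1695 with tomatidine (-1.18 ± 0.150, adjusted p = 0.000763). HEM13, coproporphyrinogen oxidase, and HEM14, the next enzyme of haem synthesis, differed by -0.81 ± 0.123 and -0.43 ± 0.0730 (adjusted p = 0.00262 and 0.00463). CYB5, cytochrome b5, which passes electrons to sterol and lipid enzymes, had 168, 136 and 175 with tomatine against 502, 551 and 412 with tomatidine, 3.06-fold lower (-1.61 ± 0.131, adjusted p = 2.62e-05). Of 29 multidrug resistance genes 5 were called lower (17.2%, against 3.48% of all genes), with PDR11 and AUS1 again among them. ICT1, an acyltransferase, and GRE2, a reductase, differed by -0.68 ± 0.0654 and -0.62 ± 0.110 (adjusted p = 9.4e-05 and 0.00653). PDR5, the best known drug efflux pump of yeast, had 18.5, 17.5 and 20.8 with tomatine and 19.7, 17.9 and 27.9 with tomatidine, with overlapping groups and a 95% interval of -0.53 to 0.17. Its 7 probe sets had group means of 8.11 to 21.8, near the level of the a-cell markers, so these values do not show whether PDR5 differed.

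The other genes among the 15 lowest were of mixed kind. PBI1 had 15.97, 14.7 and 19.7 with tomatine against 139, 147 and 95.4 with tomatidine (-2.90 ± 0.180, adjusted p = 3.79e-06). Its tomatine values were near those of the a-cell markers, and whether they exceed background was not tested. SET4, a chromatin protein with a SET domain, had 9.23, 8.67 and 8.27 with tomatine against 45.1, 32.8 and 34.7 with tomatidine (-2.09 ± 0.277, adjusted p = 0.00104). YSR3, a sphingoid base phosphate phosphatase, had 81.1, 64.3 and 77.8 with tomatine against 271, 287 and 228 with tomatidine, 3.52-fold lower (-1.82 ± 0.175, adjusted p = 9.4e-05). It was the 1 called gene among 25 of sphingolipid synthesis (4.0%, near the 3.48% of all genes called lower). The groups were apart for PBI1, SET4 and YSR3, as for all 197 genes called lower. YMR317W, YPR145C-A and ARO5 (YGL117W) differed by -2.10 ± 0.188, -2.06 ± 0.322 and -1.92 ± 0.118 (adjusted p = 5.45e-05, 0.00299 and 3.79e-06). FHN1, a membrane protein related to those of eisosomes, and TSA2, a thioredoxin peroxidase, were outside the 15 and differed by -1.55 ± 0.159 and -1.50 ± 0.181 (adjusted p = 0.000167 and 0.000495).

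Cells raise the genes of the phosphate regulon when phosphate is scarce. Of 24 measured, 12 were called lower and 1 higher, with a list median of -0.25. PHO89, a sodium and phosphate cotransporter, had 159, 189.5 and 214 with tomatine, 713, 937 and 632 with tomatidine and 215, 264 and 189 in control. It was 4.03-fold lower with tomatine (-2.01 ± 0.168, adjusted p = 3.15e-05). The secreted acid phosphatase PHO5 had 235, 217 and 219.5 with tomatine, 726, 790.0 and 661 with tomatidine and 355, 281 and 264 in control, 3.23-fold lower (-1.69 ± 0.113, adjusted p = 7.19e-06). For both genes the tomatidine values were above those of the other groups on every day. SPL2, which acts on low-affinity phosphate uptake, and PHM6 differed by -1.18 ± 0.103 and -1.09 ± 0.0883 (adjusted p = 4.27e-05 and 2.62e-05). PHO8, the vacuolar alkaline phosphatase, differed by -0.71 ± 0.0779 (adjusted p = 0.000262). The 1 higher call was PHO3, a constitutive acid phosphatase named after its values were seen, which was not called without tomatine 1, tomatine 3 or any 1 of the tomatidine arrays.

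The next calls concern amino acid synthesis, where some genes stand in more than 1 list. In sulfate assimilation and methionine synthesis 13 of 32 genes were called lower and none higher, with a median of -0.27. MET2, which activates homoserine, had 30.7, 33.6 and 44.7 with tomatine against 56.6, 92.5 and 91.8 with tomatidine (-1.13 ± 0.185, adjusted p = 0.00417). MET17, homocysteine synthase, had 991, 1116 and 892 with tomatine against 1632, 1622 and 1849.6 with tomatidine (-0.77 ± 0.0979, adjusted p = 0.000756), and MET14, adenylylsulfate kinase, differed by -0.71 ± 0.102 (adjusted p = 0.00179). Every tomatine value of these genes lay below every tomatidine value, as for all 197 genes called lower.

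In lysine synthesis 7 of 10 genes were called lower (4 without tomatidine 1), with a median of -0.47, and for all 10 every tomatine array was below every tomatidine array. LYS1, the last enzyme, had 178, 159.6 and 150.3 with tomatine against 346, 272 and 338 with tomatidine (-0.97 ± 0.112, adjusted p = 0.000362). LYS2, aminoadipate reductase, LYS9, which precedes LYS1, and LYS20, a homocitrate synthase, differed by -0.68 ± 0.112, -0.65 ± 0.114 and -0.49 ± 0.0809 (adjusted p = 0.00439, 0.00625 and 0.00443). In arginine synthesis and breakdown 4 of 16 were called lower and none higher. ARG1, argininosuccinate synthetase, had 464, 367 and 471 with tomatine, 2072, 1363 and 2001 with tomatidine and 869.5, 359 and 846 in control. It was 4.13-fold lower with tomatine (-2.05 ± 0.300, adjusted p = 0.002), and the day 2 array was the lowest in each of the 3 groups. ARG4 and ARG7, also of arginine synthesis, differed by -1.06 ± 0.113 and -0.99 ± 0.110 (adjusted p = 0.000223 and 0.000262).

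Of 19 genes of histidine and aromatic amino acid synthesis 6 were called lower and none higher, among them HIS5 (-0.85 ± 0.133, adjusted p = 0.00299), HIS4 (-0.61 ± 0.0951, adjusted p = 0.00299) and ARO3, which opens the aromatic pathway (-0.51 ± 0.0800, adjusted p = 0.00299). Branched-chain synthesis had 3 of 13 lower, with LEU2 at -0.59 ± 0.0968 and LEU4 at -0.57 ± 0.0936 (adjusted p = 0.00417 and 0.00409). The list of threonine, serine and their breakdown had 3 of 13 lower. Of these, HOM3, aspartate kinase, at -0.59 ± 0.0715 (adjusted p = 0.000504), and HOM2 are also among the 13 calls of sulfate and methionine, and SER33 belongs to serine synthesis. The genes of the threonine branch itself, THR1 and THR4, were not called. ADH5, an alcohol dehydrogenase, had 149.7, 128 and 134 with tomatine, 466, 349.6 and 393 with tomatidine and 249, 262 and 261 in control. Here the 3 groups were in 3 separate ranges, tomatine lowest and tomatidine highest (-1.55 ± 0.123, adjusted p = 2.4e-05). ARO10, phenylpyruvate decarboxylase of the same fusel alcohol route, went the other way, with 68.8, 85.7 and 71.0 with tomatine, 42.0, 36.2 and 41.5 with tomatidine and 135, 126 and 88.3 in control (0.91 ± 0.167, adjusted p = 0.00811).

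**Figure D3:**
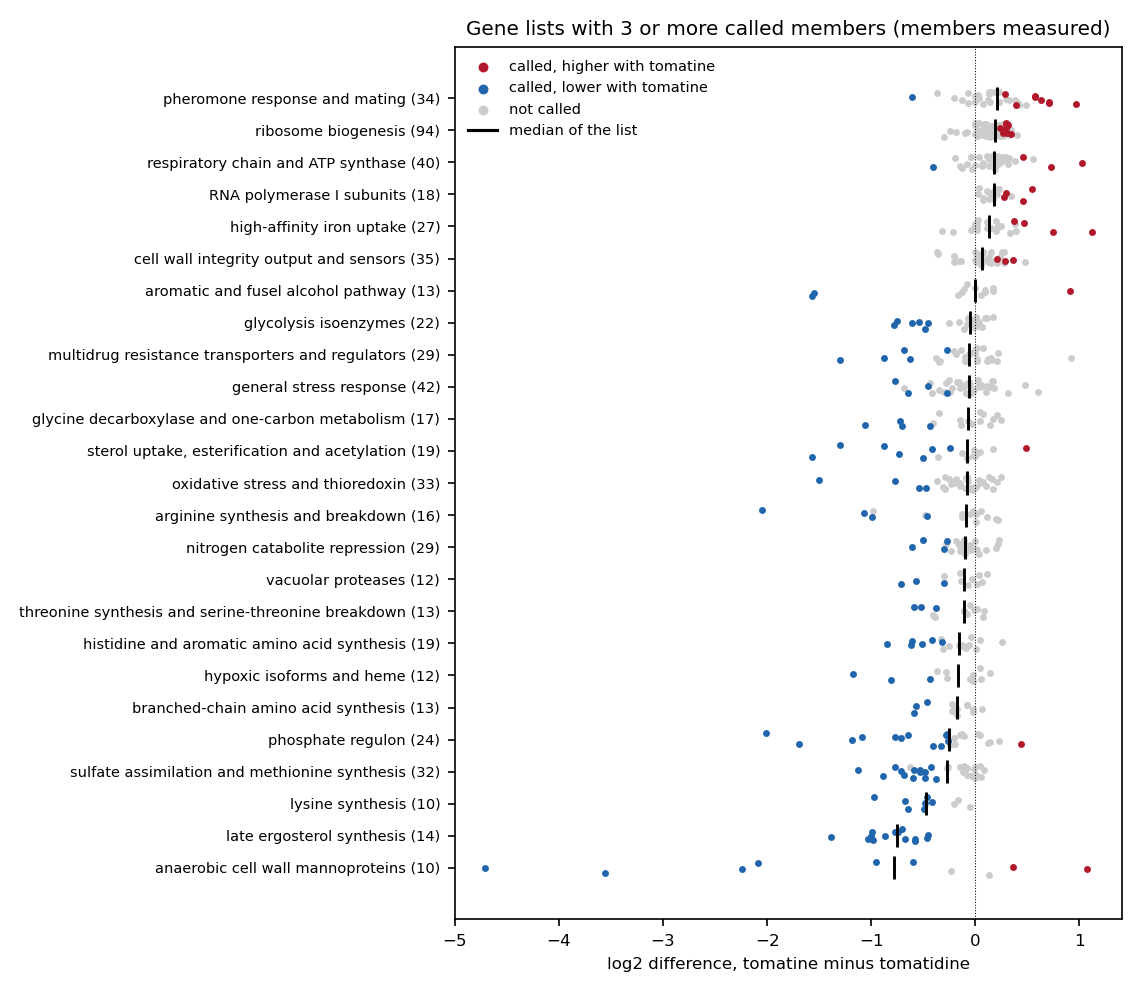
Each row is a gene list with 3 or more called members, with the number of members measured in brackets, and each point is the log2 difference of 1 gene, tomatine minus tomatidine. Red points were called higher, blue points lower and grey points not called, and the bar is the list median. The mannoprotein list, late ergosterol synthesis and lysine synthesis have the lowest medians. The mannoprotein list carries the name anaerobic but also holds CWP1, CWP2 and TIP1.

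Glycine decarboxylase splits glycine and feeds its carbon to folate carriers. GCV2, its P subunit, had 1021, 541 and 754 with tomatine, 2036, 1359 and 1363 with tomatidine and 2299, 2121 and 2118 in control. It was 2.08-fold lower with tomatine (-1.06 ± 0.216, adjusted p = 0.0154), with control the highest group, and the call ended without tomatidine 1 (adjusted p = 0.0653, the highest of the 17 alternatives, with the lowest at 0.00237). GCV1, the T subunit, had 1204, 1060.2 and 996 with tomatine, 2132, 1549.8 and 1652 with tomatidine and 2294, 2515 and 2311 in control (-0.70 ± 0.131, adjusted p = 0.00925). GCV3, the H protein, followed the same order of groups but did not pass the test (-0.40 ± 0.113, adjusted p = 0.0659), and LPD1, the subunit shared with other complexes, had -0.15 (95% interval -0.32 to 0.02). ADE3, an enzyme that interconverts folate carriers, had 2106, 1976 and 2052 with tomatine against 3039, 2637 and 2621 with tomatidine (-0.43 ± 0.0731, adjusted p = 0.00468). MTD1, a folate dehydrogenase, had 811, 673 and 634 with tomatine against 1382, 892 and 1252 with tomatidine (-0.72 ± 0.153, adjusted p = 0.0193). The call of MTD1 ended without tomatidine 1, tomatidine 3, tomatine 2 or tomatine 3 (adjusted p = 0.083, 0.0662, 0.0646 and 0.0719), within 0.00341 to 0.0830 over all alternatives.

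In all, 4 of 17 genes of glycine decarboxylase and folate metabolism were called lower and none higher, and without tomatidine 1 the count was 2. SHM2, the cytosolic serine hydroxymethyltransferase, had 2670.5, 2397 and 2066 with tomatine against 3365, 2886 and 2831 with tomatidine (-0.35 ± 0.0969, adjusted p = 0.0607, 0.0442 with the day as a block, and 0.0271 to 0.201 over all alternatives), while its mitochondrial counterpart SHM1 had 0.17 (95% interval 0.03 to 0.30). The groups were apart in opposite directions for this pair. The remaining 10 genes, CDC21, DFR1, FOL1, FOL2, FOL3, MET7, MET12, MET13 and MIS1 with LPD1, lay between -0.15 and 0.25 and none was called. Of 21 purine synthesis genes limma called 0, with 4 at an unadjusted p under 0.05, which 22.9% of all genes had. The largest was ADE2 at -0.42 ± 0.123 (adjusted p = 0.078, 0.0449 with the day as a block, and 0.0380 to 0.238 over all alternatives).

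Of 22 glycolytic genes 6 were called lower with tomatine (27.3%, against 3.48% of all genes). The count was 2 without tomatine 2, tomatine 3, tomatidine 1 or tomatidine 3. ENO1, an enolase, had 7751, 6903 and 7634 with tomatine, 11218, 11454 and 11243 with tomatidine and 10613, 9639 and 10612 in control (-0.61 ± 0.0667, adjusted p = 0.000262). Its tomatine values were below those of both other groups. The general stress list had 4 of 42 lower (9.52%, against 3.48% of all genes) and none higher. All 4 stand in other lists too (GPP2 and PHM8 in the phosphate regulon, UGA1 in nitrogen catabolite repression and HXK1 in glycolysis), and 1 or 2 were called when any 1 of the 6 arrays was left out. The largest difference of the stress list was that of GPP2, a glycerol phosphatase, with 152, 166 and 156 with tomatine against 223, 321 and 275 with tomatidine (-0.77 ± 0.115, adjusted p = 0.00217). APE1, a vacuolar aminopeptidase, had 312, 321 and 298 with tomatine, 457, 431 and 494 with tomatidine and 552, 479.9 and 496 in control (-0.57 ± 0.0911, adjusted p = 0.00369).

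Genes higher with tomatine differed by less. FET3, the multicopper ferroxidase of iron uptake, had 1459, 1621 and 1651 with tomatine, 580.1, 818 and 800.2 with tomatidine and 1419, 1054 and 1280.3 in control. It was 2.17-fold higher with tomatine (1.12 ± 0.135, adjusted p = 0.000491), the largest higher difference of any named gene, and its tomatine values also exceeded the control values. Of the 27 genes of the iron list 4 were called higher (14.8%, against 2.63% of all genes) and none lower. FIT2, a wall protein that holds iron carriers, differed by 0.47 ± 0.0881 (adjusted p = 0.00925). FTR1 and FIT1, of the same list, had 0.39 and 0.03 and were not called (adjusted p = 0.129 and 0.923). ZRT1, the zinc transporter placed in this list, had 373, 329 and 427 with tomatine against 218, 208 and 245 with tomatidine (0.74 ± 0.109, adjusted p = 0.002), and 3 of its 4 probe sets were called higher. Because ZRT1 is among the calls, the count of the list does not describe iron uptake genes alone. NFG1, a regulator of filamentous growth, had 114, 126 and 148 with tomatine against 59.1, 59.1 and 67.7 with tomatidine, 2.08-fold higher (1.06 ± 0.124, adjusted p = 0.000403).

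Among respiratory chain and ATP synthase genes, 3 of 40 were called higher (7.5%, against 2.63% of all genes) and 1 lower (2.5%, against 3.48%), with a list median of 0.19, and 6 were called higher with the day as a block. Without tomatine 1, tomatidine 1 or tomatidine 2 the higher count was 1. NDE1, the external NADH dehydrogenase, had 1086, 1132 and 1309 with tomatine, 522, 495 and 735 with tomatidine and 1507, 1044 and 1270.1 in control. It was 2.04-fold higher with tomatine (1.03 ± 0.167, adjusted p = 0.00398), and tomatine and control overlapped. CYC1, cytochrome c, had 194, 204 and 199 with tomatine, 116, 104 and 142 with tomatidine and 399, 252 and 363 in control, 3 separate ranges with control on top (0.73 ± 0.157, adjusted p = 0.0194). Its call held without tomatidine 3 only, and without each of the other 5 arrays the adjusted p was 0.0528 to 0.0809. STF1, which stabilises the inhibitor of ATP synthase, was the lower call, with 378, 352 and 362 with tomatine, 539.7, 453 and 462 with tomatidine and 760.2, 736 and 688 in control (-0.41 ± 0.0783, adjusted p = 0.0105).

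Mating genes made up another group of higher calls. Of 34 genes of pheromone response and mating 8 were called higher and 1 lower (PRM4, named after its values were seen), with a median of 0.21. PRM7, a pheromone-regulated gene, had 647, 600.2 and 485 with tomatine, 228, 349.6 and 311 with tomatidine and 246, 181 and 244 in control. It was 1.96-fold higher with tomatine (0.97 ± 0.172, adjusted p = 0.00651), and both of its probe sets were called. Its neighbour BSC1, named here after its values were seen, had 79.2, 86.5 and 85.6 with tomatine against 38.5, 59.5 and 62.1 with tomatidine (0.68 ± 0.193, adjusted p = 0.0671, 0.0111 with the day as a block, and 0.0111 to 0.199 over all alternatives). FUS1, of cell fusion, had 83.7, 75.5 and 64.8 with tomatine, 44.6, 45.1 and 46.7 with tomatidine and 71.2, 63.4 and 63.9 in control (0.71 ± 0.0989, adjusted p = 0.00145). AGA1, an agglutinin anchor, and FUS3, the mating MAP kinase, differed by 0.71 ± 0.102 and 0.63 ± 0.0847 (adjusted p = 0.0017 and 0.0011), with 2 further FUS3 probe sets of lower signal not called.

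Of the 4 genes specific to alpha cells 2 were called higher. SAG1, the alpha agglutinin, had 2704, 2599 and 2709 with tomatine, 1689, 1367 and 1445 with tomatidine and 2490.4, 2248 and 2503 in control (0.84 ± 0.118, adjusted p = 0.00154), and MF(ALPHA)2, a pheromone precursor, had 1957, 1877 and 1858 with tomatine, 1215, 1031 and 1124 with tomatidine and 1927, 1837 and 1901 in control (0.76 ± 0.110, adjusted p = 0.0018). Tomatine and control shared a range for MF(ALPHA)2, and tomatidine lay below both for each gene. The receptor gene STE3 and MF(ALPHA)1 were higher on every tomatine array than on any tomatidine array and did not pass the test (adjusted p = 0.166 and 0.151). None of the 7 genes specific to a cells was called, with 0 at an unadjusted p under 0.05 and differences from -0.13 to 0.09.

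Also among the 15 highest were RGS2, a regulator of G protein signalling, with 22.5, 18.9 and 17.5 with tomatine against 9.51, 10.3 and 10.5 with tomatidine (0.95 ± 0.131, adjusted p = 0.00135), and SRD1, linked to ribosomal RNA processing, with 53.3, 53.0 and 62.4 with tomatine against 29.6, 32.1 and 30.8 with tomatidine (0.87 ± 0.0825, adjusted p = 9.4e-05). KCC4, a kinase of the bud neck, differed by 0.83 ± 0.0898 (adjusted p = 0.000251), and its 2 other probe sets had 0.07 and 0.10 and were not called. AQY2, an aquaporin, differed by 0.71 ± 0.131 (adjusted p = 0.00811). YOR338W differed by 0.79 ± 0.198 (adjusted p = 0.042), a call that ended without tomatidine 1, tomatidine 3 or any 1 of the tomatine arrays (adjusted p = 0.151, 0.0979, 0.0543, 0.129 and 0.0763), within 0.00318 to 0.151 over all alternatives.

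**Figure D4:**
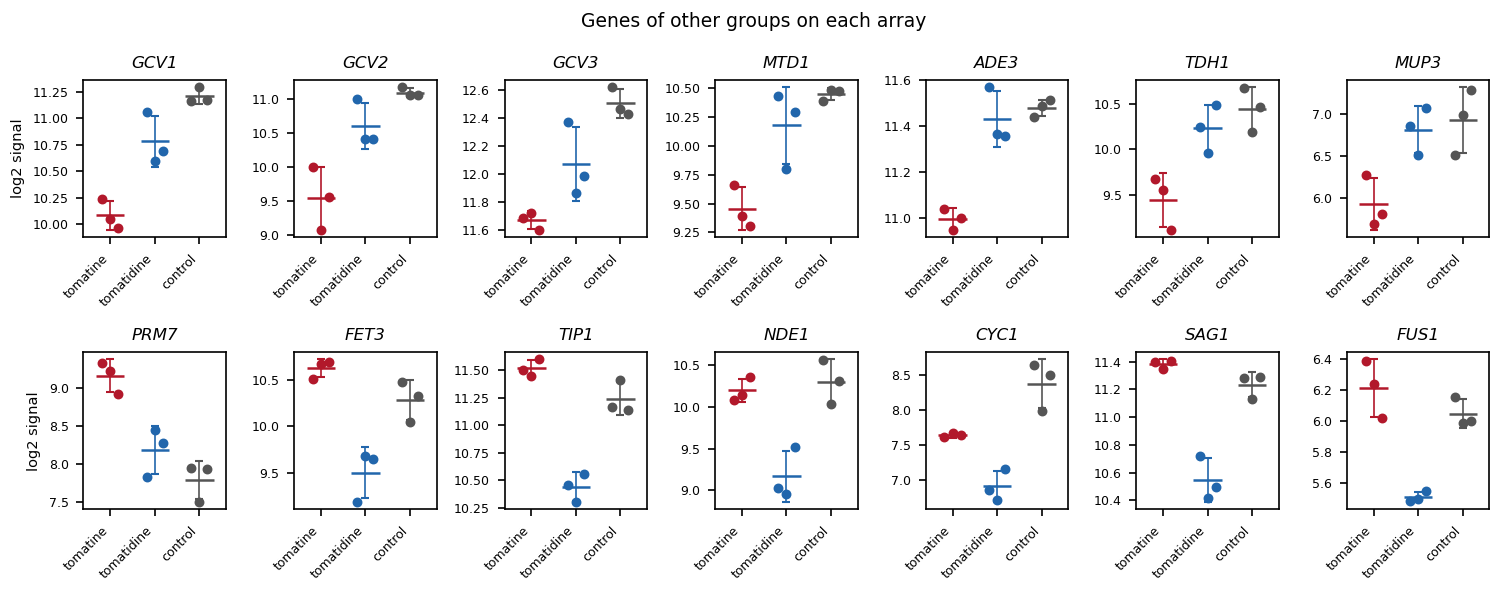
Each panel shows the log2 signal of 1 gene on the 3 tomatine (red), 3 tomatidine (blue) and 3 control (grey) arrays, with the group mean and SD as bars and a y axis of its own that does not start at 0. In the upper row tomatine has the lowest mean and control the highest. In the lower row tomatidine has the lowest mean except for PRM7, where control has.

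Ribosome biogenesis factors were called higher for 9 of 94 genes (9.57%, against 2.63% of all genes) and lower for none, with a median of 0.19. Of the 94, 50 had every tomatine array above every tomatidine array, against 19.3% of all genes. The differences were small. HAS1, a helicase of ribosome assembly, had 532, 524 and 522 with tomatine against 410.4, 431 and 436 with tomatidine (0.30 ± 0.0650, adjusted p = 0.0193). Its adjusted p was 0.0861 without tomatidine 1, 0.0661 without tomatine 1 and 0.0569 without tomatine 2, within 0.00573 to 0.0861 over all alternatives. The count of 9 was 0 without tomatidine 1, 2 without tomatine 3 and 4 without tomatine 1, tomatine 2 or tomatidine 3. It was 0 with only these 6 arrays in the fit and 22 among the probe sets above the median signal. Of 18 RNA polymerase I genes 4 were called higher (22.2%, against 2.63% of all genes), and 1 without tomatine 1 or tomatine 2 and 2 without tomatine 3 or tomatidine 2. RRN11, of the core factor that places the polymerase, had 72.5, 77.6 and 65.2 with tomatine against 50.9, 56.7 and 48.6 with tomatidine (0.46 ± 0.0762, adjusted p = 0.0042). Also called were RPA135, RPB8 and RRN6 (0.30, 0.54 and 0.28), while RPA190, RPA49, RPA43, RPA34, RPA14 and RPA12 were not. The list holds factors such as RRN11 beside subunits, so its count does not describe polymerase subunits alone.

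Several lists held no call by limma. Among cytosolic ribosomal proteins 0 of 70 were called (10 had an unadjusted p under 0.05, against 22.9% of all genes), of 32 proteasome genes 0 (4 unadjusted), of 21 trehalose and glycogen genes 0 (5 unadjusted), of 17 calcineurin and calcium genes 0 (3 unadjusted) and of 23 cyclins 0 (9 unadjusted). All 9 cyclins were higher with tomatine, and the cyclin median was 0.14 beside 0.02 for all genes. For 10 of the 23 cyclins every tomatine array lay above every tomatidine array, as for 19.3% of all genes. The largest proteasome member was PRE5, with 949, 383 and 969.5 with tomatine and 991, 956 and 878 with tomatidine, where tomatine 2 alone was low (-0.41 ± 0.270, adjusted p = 0.457).

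The values against control show on which side each difference lay. These 2 comparisons share the control arrays, and the genes were chosen on the difference between the compounds, so the medians are a description. Over the 36 genes called at least 2-fold lower with tomatine the median difference between the compounds was -1.53, that of tomatine minus control -0.16 and that of tomatidine minus control 1.34. Over the 4 called at least 2-fold higher (FET3, TIP1, NFG1 and NDE1) the medians were 1.07, 0.31 and -0.79. For late ergosterol synthesis the list medians were -0.01 for tomatine minus control and 0.77 for tomatidine minus control. The corresponding medians were -0.02 and 0.24 for the phosphate regulon, -0.01 and 0.48 for lysine synthesis, and -0.23 and -0.38 for the respiratory chain. For ribosome biogenesis they were 0.37 and 0.19.

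Single genes showed several arrangements. DAN1 stood 0.37 ± 0.344 from control with tomatine and 5.08 ± 0.344 with tomatidine, and ERG3 0.12 ± 0.0626 with tomatine and 1.15 ± 0.0626 with tomatidine. GCV2 stood -1.54 ± 0.216 from control with tomatine and -0.48 ± 0.216 with tomatidine, and GCV1 -1.13 ± 0.131 with tomatine and -0.43 ± 0.131 with tomatidine, so that the larger departure was on the tomatine side. PRM7 stood 1.37 ± 0.172 from control with tomatine and 0.40 ± 0.172 with tomatidine. ADH5 stood -0.91 ± 0.123 with tomatine and 0.64 ± 0.123 with tomatidine, on opposite sides of control. FET3 stood 0.34 ± 0.135 with tomatine and -0.78 ± 0.135 with tomatidine.

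**Figure D5:**
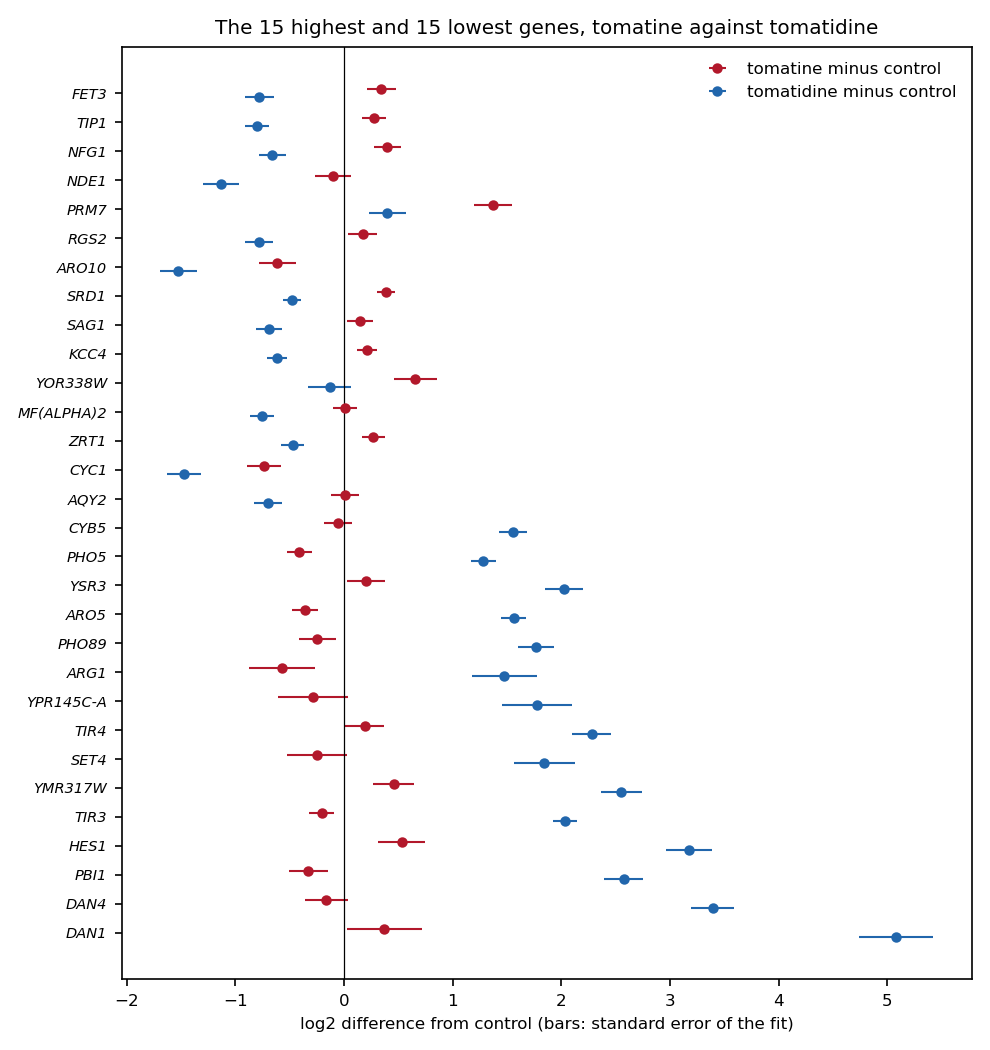
Each row is 1 of the 15 highest or 15 lowest genes of the comparison, in the order of their difference, with the log2 difference from control of tomatine (red) and tomatidine (blue) on the x axis and the standard error of the fit as bars. For the 15 lowest genes the tomatine points lie between -0.57 (ARG1) and 0.53 (HES1) and the tomatidine points between 1.28 (PHO5) and 5.08 (DAN1).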

How the data were processed

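RNA of 12 yeast cultures was hybridised to Affymetrix arrays, 1 array per culture. The deposited values are probe set intensities made by the authors with RMA, per the submitters' processing notes; the version and settings are not given in the sources used here. They were linear, from 1.84 to 20860 on the 6 arrays compared, and log2 was taken here. Of 9335 probe sets 60 are array controls and were not used, and the other 9275 were all tested, with no filter on low values. Of these, 6504 name 1 gene in the platform annotation, 328 several and 2443 none. All 6504 were matched to the RefSeq table of assembly R64, and 5656 genes were each read from their brightest probe set.

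One model with 4 group means was fitted to the 12 arrays in limma 3.58.1 (R 4.3.3; prior degrees of freedom 3.65, residual 8), and p-values were two-sided and Benjamini-Hochberg adjusted over the 9275. The 49 lists hold 1124 measured entries. Lists and genes were chosen with earlier results of these data known. The rule for named genes took the 15 highest and 15 lowest called genes with the same sign on all 3 days, all members of the late ergosterol, mevalonate and glycine decarboxylase lists, UPC2, ECM22, PDR5 and HAP1, the mating type markers, and of each list up to 4 called members with the largest difference, or the largest where none was called. The replicate number is the day of culture in the titles and pairs the samples. Deviations from the group means correlated at 0.0594, 0.0324 and 0.00784 between tomatine and tomatidine arrays of the same day and at -0.128 to 0.0872 between those of other days. Figures were drawn with matplotlib 3.10.9. The method was run on simulated data with independent normal noise of the spread the fit itself estimated. The simulation held no array faults or day effects, so it cannot show how the fit behaves where an array deviates. The number of arrays limits the precision. The 17 alternatives are given in the closing section.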

Additional observations from a re-analysis of the deposited data

How the results depend on the processing

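With the day of culture as a replicate block, 463 probe sets were called (189 higher and 274 lower), and the late ergosterol count was 14 in both fits. Beside the calls named in the text for ERG8, SHM2, ADE2 and BSC1, the block added the call of BNA6 (adjusted p = 0.0311), ended those of UGA1, CHS3 and ATO3 (adjusted p = 0.0774, 0.0721 and 0.0503), and changed no other call among the 173 named genes. With only the tomatine and tomatidine arrays in the fit, 261 probe sets were called (72 higher), the glycine decarboxylase list had 2 lower calls and ribosome biogenesis 0 higher. Higher calls numbered 353 with 16 added before the log and 377 among the probe sets above the median signal. The ribosome biogenesis count was 15 with median centring, 16 with a trended robust prior, 17 with 16 added, 19 with 1 probe set per gene and 22 among the probe sets above the median signal, and the pheromone count was 13 with 1 probe set per gene.

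Leaving out each of the 6 arrays in turn gave 261 to 367 called probe sets, 80 to 134 higher, 181 to 234 lower and 47 to 58 at 2-fold or more. List counts ran over 12 to 13 for late ergosterol, 9 to 10 for phosphate, 11 to 13 for sulfate and methionine, 4 to 7 for lysine, 2 to 5 for glycine decarboxylase, 0 to 8 for ribosome biogenesis, 6 to 10 for pheromone response, 3 to 5 for iron and 6 to 7 for sterol uptake. Of the 130 called named genes 89 were called in each of these 6 fits, and 34 lost the call without tomatidine 1. None of the 173 changed sign with a call under any of the 17 alternatives. Fits without 1 array assume that the remaining pair varies like the other groups.

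Each compound had 1 dose and 1 time, the doses differed and growth at harvest was not analysed here, so compound, dose and growth cannot be told apart. No detection calls were used here, so dim genes such as HES1, PBI1, PDR5, SET4, RGS2, ARO5, YMR317W, FAA2 and YPR145C-A were read without a test of signal over background.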

Other observations

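Of 33 genes of oxidative stress and thioredoxin 4 were called lower with tomatine (12.1%, against 3.48% of all genes), with GTT1, a glutathione transferase, at -0.54 ± 0.0881 beside TSA2 (adjusted p = 0.0041), and 2 without tomatine 3 or tomatidine 1. In the list named for vacuolar proteases 3 of 12 genes were lower (25.0%), APE1, YPS6 and PHO8. Of these, YPS6 is a protease of the cell surface and PHO8 is a phosphatase that is also in the phosphate regulon. The count therefore does not describe vacuolar proteases alone. Of 29 genes of nitrogen catabolite repression 4 were lower (13.8%), among them GDH1, glutamate dehydrogenase, with 1204, 1339.8 and 1217 with tomatine against 2101, 2065 and 1597 with tomatidine (-0.61 ± 0.125, adjusted p = 0.016), and 0 to 2 were called when any 1 of the 6 arrays was left out. MUP3, a methionine permease and 1 of 2 lower calls among 27 permeases (7.41%, against 3.48% of all genes), had 77.7, 52.0 and 56.3 with tomatine, 116, 91.5 and 134 with tomatidine and 91.2, 127 and 156 in control (-0.88 ± 0.199, adjusted p = 0.0257). Its call ended without tomatidine 1, tomatidine 3, tomatine 2 or tomatine 3 (adjusted p = 0.0867, 0.0863, 0.0893 and 0.0862), within 0.0120 to 0.0893 over all alternatives.

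Of 35 cell wall integrity genes 3 were called higher with tomatine (8.57%, against 2.63% of all genes), CHS3, WSC3 and CWP1, which is also among the mannoproteins, and 0 or 1 when any 1 of the 6 arrays was left out. Single higher calls were YDJ1, a co-chaperone (0.33 ± 0.0637, adjusted p = 0.0103), among 23 heat shock chaperones, and SCT1, an acyltransferase (0.30 ± 0.0548, adjusted p = 0.00851), among 31 genes of phospholipid synthesis. These are 4.35% and 3.23% of their lists, near the 2.63% of all genes. Single lower calls were EUG1, a protein disulfide isomerase (-0.46 ± 0.0792, adjusted p = 0.00514), among 23 genes of the unfolded protein response, and FAA2, an acyl-CoA synthetase (-0.56 ± 0.111, adjusted p = 0.0131, and 0.0524 without tomatine 1), among 17 of fatty acid synthesis. These are 4.35% and 5.88% of their lists, near the 3.48% of all genes. The 13 polyamine genes and the 14 of the kynurenine pathway held no call by limma, with 6 and 5 at an unadjusted p under 0.05, against 22.9% of all genes. With tomatine 4 of these polyamine genes were higher and 2 lower, and 2 of the kynurenine genes were higher and 3 lower. The tricarboxylic acid cycle (CIT2 of 22), hexose transporters (HXT3 of 19) and glycerol synthesis (GPP2 of 18) each had 1 lower call, GPP2 being also in the phosphate regulon. Their shares of 4.55%, 5.26% and 5.56% are near the 3.48% of all genes. Gluconeogenesis had REG2 lower and ATO3 higher of 22 (4.55% each way), and the eisosome list had FHN1 lower and PUN1 higher of 17 (5.88% each way).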
